A study of Mus musculus with 12 samples.

Results

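The genes described here are those of cholesterol and fatty acid synthesis, together with the SREBP system that controls them. They were picked as a pathway list and found by gene symbol in the platform annotation. Of 34 genes on the list, 31 had a probe on the array and 29 were measured above background and tested, among 8311 genes tested in all. Acat2, Mvk and Fdft1 were not analysed here, while Idi1, which isomerises the first isoprenoid unit, and Fasn, the fatty acid synthase, had 1 probe each that was above background on 0 and 1 of the 12 arrays.

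Total RNA of whole lungs from mouse embryos at E15.5, all on the 129/Sv background, was measured on Illumina bead arrays with 4 specimens for each of 3 genotypes. MEK1 and MEK2 phosphorylate and so switch on ERK, the last kinase of the MAPK cascade. Double mutants were Mek1flox/flox;Mek2-/-;Dermo1+/Cre, the next group was Mek1+/flox;Mek2-/-;Dermo1+/Cre and is called 1 Mek1 allele after what its recombined cells keep, and controls were Dermo1+/Cre. All 12 embryos carried the Cre allele, which is driven by the Twist2 (Dermo1) locus in embryonic mesenchyme, so that Mek1 was deleted in cells with Cre while Mek2 was missing from every cell of both mutant groups. No group separates the loss of Mek2 alone from the loss of Mek1 alone. RNA of the whole organ also includes epithelium and blood, which the driver is not expected to recombine. It includes vessels too, and in which of their cells Mek1 was deleted was not measured here. Fewer cells of a type and less RNA per cell cannot be told apart in such samples. Whether specimens were pooled is not stated in the labels, and p-values measure the spread between these specimens only.

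Cholesterol is built from acetyl-CoA through mevalonate, farnesyl diphosphate, squalene and lanosterol, and fatty acids from the same acetyl-CoA through malonyl-CoA, after which desaturases and elongases shape the chains. Both routes are switched on by the SREBP transcription factors, which are held in the endoplasmic reticulum by SCAP and INSIG proteins when sterols are plentiful and are cut free in the Golgi when they are scarce. In the fetal lung these lipids go into membranes, into the triglyceride stores of lipofibroblasts and into the surfactant phospholipids that the epithelium makes before birth. ERK signalling and SREBP activity are both regulated by growth factors in many cell types.

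Promoter sequence is shown for 4 members, since SREBP and its partner NF-Y act on these genes through short motifs close to the start site. Srebf2, Mvd and Ebp are printed as the sterol genes with the smallest p in double mutants against controls, and Hmgcs1 as the member in which the sterol regulatory element core was found. Each run covers 250 bases before to 50 after the RefSeq start on GRCm38.p6, 5′ to 3′ on the strand of the gene. The windows are chr15:82147019-82147318 (+) for Srebf2, chr13:119690101-119690400 (+) for Hmgcs1, chr8:122443373-122443672 (-) for Mvd and chrX:8193463-8193762 (-) for Ebp. Capitals mark CCAAT, the NF-Y box, read as ATTGG on the other strand, and TCACNCCAC, the core of the sterol regulatory element. The motifs do not overlap in these runs.
Srebf2: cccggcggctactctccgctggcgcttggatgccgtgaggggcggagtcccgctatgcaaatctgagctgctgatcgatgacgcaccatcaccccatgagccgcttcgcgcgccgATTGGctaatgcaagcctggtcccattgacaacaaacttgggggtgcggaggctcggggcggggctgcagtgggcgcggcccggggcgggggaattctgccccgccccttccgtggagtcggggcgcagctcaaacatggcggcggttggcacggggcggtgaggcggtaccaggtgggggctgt
Hmgcs1: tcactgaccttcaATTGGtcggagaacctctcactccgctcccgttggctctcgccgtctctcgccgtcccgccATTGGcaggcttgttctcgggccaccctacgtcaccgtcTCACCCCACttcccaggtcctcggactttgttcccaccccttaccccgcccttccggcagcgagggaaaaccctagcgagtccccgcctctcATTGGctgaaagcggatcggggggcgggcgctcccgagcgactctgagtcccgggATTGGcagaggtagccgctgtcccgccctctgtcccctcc
Mvd: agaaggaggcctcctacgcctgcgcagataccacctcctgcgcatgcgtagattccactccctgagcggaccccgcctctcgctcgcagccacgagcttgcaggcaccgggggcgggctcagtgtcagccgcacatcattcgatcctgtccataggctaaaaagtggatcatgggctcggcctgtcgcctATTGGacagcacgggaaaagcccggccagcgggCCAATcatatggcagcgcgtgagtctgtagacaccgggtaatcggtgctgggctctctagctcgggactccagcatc
Ebp: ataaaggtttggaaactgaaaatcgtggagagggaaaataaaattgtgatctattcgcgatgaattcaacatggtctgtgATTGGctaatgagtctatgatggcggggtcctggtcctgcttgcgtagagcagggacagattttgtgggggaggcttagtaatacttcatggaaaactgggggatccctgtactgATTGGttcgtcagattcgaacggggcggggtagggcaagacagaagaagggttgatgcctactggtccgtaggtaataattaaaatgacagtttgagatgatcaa
Promoters of 27 of the 34 members were matched by symbol in the RefSeq table. CCAAT on either strand occurred in 22 of them (81.5%), against 41.1% of all 27025 genes with a promoter there. The sterol element core on either strand occurred in 1 of 27 (3.7%), Hmgcs1, against 1.44% of all genes. The palindromic E-box TCACGTGA, another SREBP motif, was in 0 of 27, against 1.12% of all genes. A match to these letters is a description of the window, and their absence from it says nothing about the factor.

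No member passed the threshold of limma's Benjamini-Hochberg adjusted p of 0.05 in any of the 3 comparisons. The count was 0 of 29 in double mutants against controls, where 3.02% of all genes tested passed. It was 0 of 29 in double mutants against 1 Mek1 allele, where 0.541% of genes passed, and in 1 Mek1 allele against controls 0 of 29, where 0.638% did. At background shares this low, counts of 0 among 29 members are near the background and set the members apart in no comparison. With no adjustment, limma's p was under 0.05 for 6 members (20.7%) in double mutants against controls, close to the 18.7% of all genes. The same count was 6 members (20.7%, against 11.5% of all genes) in double mutants against 1 Mek1 allele and 9 members (31%, against 16.4%) in 1 Mek1 allele against controls. Both of these counts include Tm7sf2, whose signal with 1 Mek1 allele was at background. Other processing choices called up to 3, 1 and 4 members in the same order of comparisons, as given under the dependence on processing. The comparisons share arrays: controls enter 2 of them, and so does each mutant group.

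Signal intensities on the array limit which differences could be seen. Of the 29 members, 25 were above background on all 12 arrays, Dhcr7 on 11, Srebf1 on 10, and Tm7sf2 and Sc5d on 5 each. The 95% interval of a member's log2 difference had a median half-width of 0.28. For double mutants against controls the interval lay within 2-fold either way for all 29 members and within 1.5-fold for 21. It lay within 2-fold for 26 and 28 members, and within 1.5-fold for 23 and 20, in double mutants against 1 Mek1 allele and in 1 Mek1 allele against controls. The plot of differences by pathway step shows these intervals side by side.

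**Figure D1:**
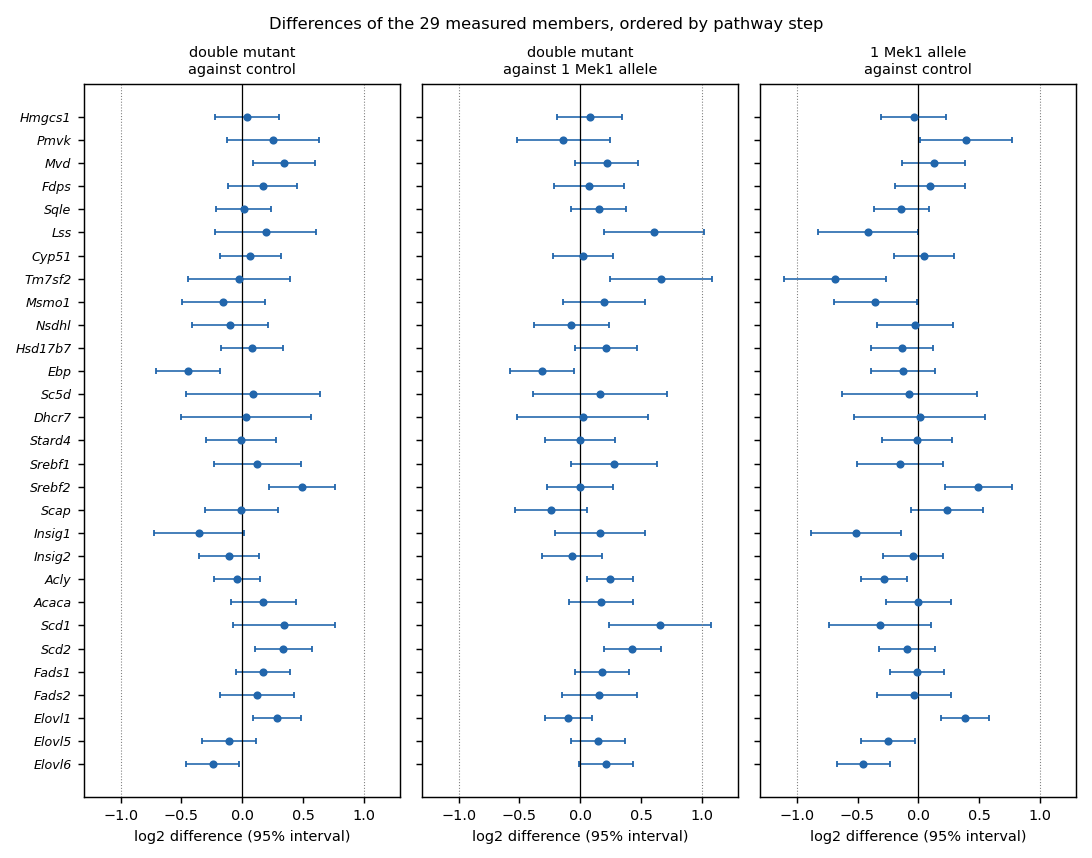
Log2 difference (x axis, with 95% interval) of the 29 measured members, ordered down the page by pathway step, in double mutants against controls, double mutants against 1 Mek1 allele, and 1 Mek1 allele against controls. Dotted lines mark 2-fold, and no member passed limma's adjusted threshold in any panel. With 1 Mek1 allele, 0 of 4 arrays measured Tm7sf2 above background, so its points against that group are not measured folds.

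SREBP control was measured through 5 genes, and Srebf2 had the smallest p of all members in double mutants against controls. Srebf2 encodes SREBP2, the factor that drives the cholesterol pathway. Its log2 intensity was 8.50, 8.65, 8.73 and 8.51 on the double mutant arrays, 8.72, 8.39, 8.72 and 8.58 with 1 Mek1 allele, and 8.38, 7.85, 8.23 and 7.98 in controls. Every mutant array lay above every control, and the lowest mutant and the highest control nearly touched. The double mutant mean of 8.60 ± 0.11 stood 0.49 ± 0.13 (SE) above the control mean of 8.11 ± 0.24 (SD, n = 4 each), or 1.41-fold with an interval of 1.16 to 1.70, and limma's adjusted p was 0.0561. With 1 Mek1 allele the mean was 8.60 ± 0.16, again 0.49 ± 0.13 above controls (limma adjusted p = 0.0865). Double mutants and 1 Mek1 allele differed by -0.0024 with an interval of -0.28 to 0.27 (limma adjusted p = 0.998).

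Insig1, which holds SCAP and the SREBPs in the endoplasmic reticulum and is itself a classic SREBP target, was read by 3 probes above background that gave different answers. The brightest probe measured 6.31, 6.005, 6.13 and 6.05 in double mutants, 5.97, 5.78, 5.84 and 6.26 with 1 Mek1 allele, and 6.28, 6.65, 6.92 and 6.05 in controls. Controls spread the most, and the groups overlap through control replicates 1 and 4. The difference was -0.35 ± 0.17 in double mutants against controls (limma adjusted p = 0.286) and -0.51 ± 0.17 in 1 Mek1 allele against controls (limma adjusted p = 0.164). Over the other probes the double mutants differed from controls by -0.09 and 0.33. On the last of these, the dimmest of the 3, the group with 1 Mek1 allele had 0 of 4 arrays above background, and double mutants were at least 1.13-fold higher than that group. In Srebf1, for SREBP1, in Scap, the escort of the SREBPs, and in Insig2, the relative of Insig1, the 3 comparisons gave between -0.24 and 0.28, with limma's adjusted p between 0.41 and 0.987.

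Of the mevalonate steps 4 genes were measured, and their median difference was 0.21 in double mutants against controls, beside a median over all genes of -0.0036. Mvd, the mevalonate diphosphate decarboxylase, read 8.26, 7.98, 8.09 and 8.17 in double mutants, 7.64, 7.95, 7.84 and 8.20 with 1 Mek1 allele, and 7.83, 7.72, 7.69 and 7.89 in controls. All double mutant arrays were above all controls, while the arrays with 1 Mek1 allele spanned both ranges. Mvd differed by 0.34 ± 0.12, or 1.27-fold with an interval of 1.06 to 1.51, in double mutants against controls (limma adjusted p = 0.149) and by 0.22 in comparison with 1 Mek1 allele (limma adjusted p = 0.535).

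Pmvk, the phosphomevalonate kinase one step before Mvd, gave 7.26, 7.28, 7.64 and 7.58 in double mutants, 7.70, 7.32, 7.45 and 7.85 with 1 Mek1 allele, and 6.79, 6.97, 7.46 and 7.53 in controls. Its controls split into a lower and a higher pair, and the higher pair lay among the mutants. The differences from controls were 0.25 ± 0.18 in double mutants (limma adjusted p = 0.476) and 0.39 ± 0.18 with 1 Mek1 allele (limma adjusted p = 0.287). Fdps makes farnesyl diphosphate, the branch point between sterols and the lipid anchors of small GTPases. It measured 11.25, 10.89, 11.13 and 11.29 in double mutants, 11.03, 10.73, 11.20 and 11.31 with 1 Mek1 allele, and 11.02, 10.93, 10.86 and 11.09 in controls. The ranges of the 3 groups overlap, with double mutants at 0.17 ± 0.13 over controls (limma adjusted p = 0.539). Hmgcs1, the HMG-CoA synthase whose promoter holds the sterol element core shown above, differed by 0.04, with an interval of -0.23 to 0.31, in double mutants against controls (limma adjusted p = 0.906).

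**Figure D2:**
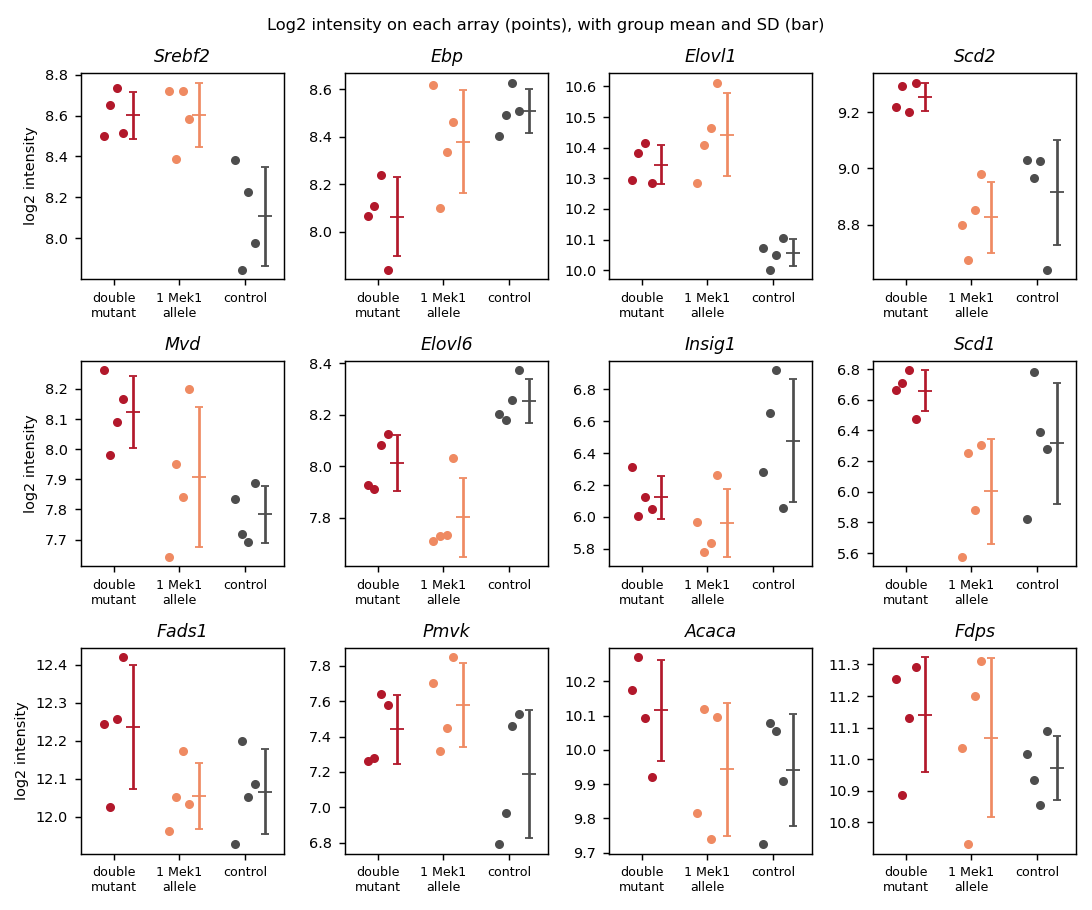
Log2 intensity (y axis, own range per gene) of the 12 members with the smallest p in double mutants against controls, with 1 point per array in double mutants, 1 Mek1 allele and controls, and a bar for the mean and SD (n = 4 each). Srebf2, Elovl1, Scd2 and Mvd of the double mutants lie above every control, and Ebp and Elovl6 below every control, while none passed limma's adjusted threshold.

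Sqle and Lss cover the squalene and lanosterol steps. Sqle, the squalene epoxidase, differed by 0.01 in double mutants against controls, by 0.15 against 1 Mek1 allele and by -0.14 in 1 Mek1 allele against controls, with limma's adjusted p of 0.967, 0.656 and 0.544. Lss, the lanosterol synthase that closes the sterol rings, measured 7.25, 7.20, 7.22 and 7.21 in double mutants, 6.27, 6.29, 6.52 and 7.37 with 1 Mek1 allele, and 6.90, 6.98, 7.14 and 7.10 in controls. Double mutants were tightly grouped just above controls, and with 1 Mek1 allele 3 arrays were the lowest of all while replicate 4 was the highest. The difference was 0.61 ± 0.19 in double mutants against 1 Mek1 allele (limma adjusted p = 0.232) and -0.41 ± 0.19 in 1 Mek1 allele against controls (limma adjusted p = 0.305). Without replicate 4 of 1 Mek1 allele, both passed, at 0.86 (limma adjusted p = 0.00766) and -0.67 (limma adjusted p = 0.0188). Against controls the double mutants differed by 0.19 (limma adjusted p = 0.638), although the arrays did not overlap.

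Of the steps between lanosterol and cholesterol all 8 listed genes were tested, with a median difference of 0.0029 in double mutants against controls. Ebp, the sterol isomerase that moves the ring double bond, had the lowest difference of any member in that comparison. It measured 8.07, 8.11, 8.24 and 7.84 in double mutants, 8.62, 8.10, 8.34 and 8.46 with 1 Mek1 allele, and 8.40, 8.49, 8.63 and 8.51 in controls. Each double mutant array was below each control, and replicate 2 of 1 Mek1 allele lay among the double mutants. Double mutants averaged 8.06 ± 0.17 and controls 8.51 ± 0.09 (SD, n = 4 each), a difference of -0.45 ± 0.12, or 0.73-fold with an interval of 0.61 to 0.88 (limma adjusted p = 0.0682). The difference was -0.32 ± 0.12 in double mutants against 1 Mek1 allele (limma adjusted p = 0.336) and -0.13 ± 0.12 in 1 Mek1 allele against controls (limma adjusted p = 0.637).

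Cyp51, the lanosterol demethylase, Msmo1, the C4-methylsterol oxidase, Nsdhl and Hsd17b7, which complete the C4 demethylation, Sc5d, the lathosterol oxidase, and Dhcr7, the final reductase, differed by -0.15 to 0.09 in double mutants against controls. Their limma adjusted p ran from 0.643 to 0.968. Msmo1 differed by -0.35 ± 0.16 in 1 Mek1 allele against controls (limma adjusted p = 0.284). A dimmer Nsdhl probe gave 0.40 in double mutants against 1 Mek1 allele and -0.39 in 1 Mek1 allele against controls, where the brightest gave -0.07 and -0.03. Tm7sf2, a sterol reductase, was above background on 2 of 4 arrays in double mutants, 0 of 4 with 1 Mek1 allele and 3 of 4 in controls. Set against the detection floor of 1 Mek1 allele, the means of double mutants and controls were 1.01-fold and 1.03-fold higher. Both means include arrays not above background, so these are not firm bounds. For the fitted differences limma's adjusted p was 0.189 in double mutants against 1 Mek1 allele and 0.115 in 1 Mek1 allele against controls. Stard4, which carries cholesterol between membranes, differed by at most 0.01 in size in all 3 comparisons, with intervals reaching 0.30 either way.

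Acly and Acaca were the measured genes of fatty acid synthesis proper. Acly, which makes cytosolic acetyl-CoA from citrate and so feeds both routes, measured 11.62, 11.67, 11.71 and 11.80 in double mutants, 11.46, 11.42, 11.49 and 11.45 with 1 Mek1 allele, and 11.59, 11.73, 11.76 and 11.87 in controls. The 4 arrays with 1 Mek1 allele lay close together and below every other array. Acly differed by 0.24 ± 0.09 in double mutants against 1 Mek1 allele (limma adjusted p = 0.303). The difference was -0.28 ± 0.09 in 1 Mek1 allele against controls (limma adjusted p = 0.138) and -0.04 in double mutants against controls. Acaca, the acetyl-CoA carboxylase that makes malonyl-CoA, measured 10.17, 10.27, 10.09 and 9.92 in double mutants, 9.82, 10.12, 9.74 and 10.10 with 1 Mek1 allele, and 9.72, 10.08, 10.06 and 9.91 in controls. These groups overlap, and the difference in double mutants was 0.17 ± 0.12 against controls (limma adjusted p = 0.488).

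Desaturation was represented by 4 genes, all of them with a positive difference in double mutants against either other group. Scd2, the stearoyl-CoA desaturase of embryonic and neural tissues in mice, measured 9.22, 9.29, 9.20 and 9.30 in double mutants, 8.80, 8.67, 8.85 and 8.98 with 1 Mek1 allele, and 9.03, 8.97, 9.03 and 8.64 in controls. The double mutants formed a narrow group above all 8 other arrays. They averaged 9.25 ± 0.05, against 8.83 ± 0.13 with 1 Mek1 allele and 8.92 ± 0.19 in controls (SD, n = 4 each). The difference was 0.43 ± 0.11, or 1.35-fold with an interval of 1.15 to 1.58, against 1 Mek1 allele (limma adjusted p = 0.105), and 0.34 ± 0.11 against controls (limma adjusted p = 0.111). The groups of 1 Mek1 allele and control differed by -0.09 (limma adjusted p = 0.717).

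Scd1, the stearoyl-CoA desaturase of liver and fat, measured 6.66, 6.71, 6.79 and 6.47 in double mutants, 5.57, 6.25, 5.88 and 6.30 with 1 Mek1 allele, and 5.82, 6.78, 6.39 and 6.28 in controls. Double mutants lay above 1 Mek1 allele without overlap, and within the range of controls apart from replicate 3. The difference was 0.66 ± 0.20 against 1 Mek1 allele (limma adjusted p = 0.197) and 0.34 ± 0.20 against controls (limma adjusted p = 0.371). Without control replicate 1 the difference from controls was 0.18, and over the 27 alternatives it ran from 0.16 to 0.61, and that from 1 Mek1 allele from 0.30 to 0.76. Fads1, the delta-5 desaturase of polyunsaturated fatty acids, measured 12.24, 12.02, 12.26 and 12.42 in double mutants, 11.96, 12.05, 12.17 and 12.03 with 1 Mek1 allele, and 11.93, 12.20, 12.05 and 12.09 in controls. Replicate 2 of the double mutants lay among the other arrays, and the difference from controls was 0.17 ± 0.10 (limma adjusted p = 0.402). Fads2, the delta-6 desaturase, differed by 0.12 from controls and by 0.16 from 1 Mek1 allele in double mutants (limma adjusted p = 0.694 and 0.737).

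Elongases differed in sign. Elovl1, which extends very long saturated chains, measured 10.30, 10.38, 10.42 and 10.29 in double mutants, 10.28, 10.41, 10.46 and 10.61 with 1 Mek1 allele, and 10.07, 10.002, 10.05 and 10.10 in controls. Both mutant groups lay above all controls, which were tightly grouped. The difference was 0.29 ± 0.09 in double mutants against controls (limma adjusted p = 0.11) and 0.39 ± 0.09 in 1 Mek1 allele against controls (limma adjusted p = 0.0664). Over the other 3 Elovl1 probes the double mutants differed from controls by -0.07, 0.19 and 0.13, and 1 Mek1 allele from controls by 0.21, 0.33 and 0.19. The probes therefore gave 1 sign in 1 Mek1 allele against controls and differing signs in double mutants against controls.

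Elovl6, which extends palmitate to stearate, measured 7.93, 7.91, 8.08 and 8.13 in double mutants, 7.71, 7.73, 7.73 and 8.03 with 1 Mek1 allele, and 8.20, 8.18, 8.26 and 8.38 in controls. All 8 mutant arrays were below all 4 controls, and 3 arrays with 1 Mek1 allele were the lowest. It had the smallest p of the members in 1 Mek1 allele against controls, at -0.45 ± 0.10, or 0.73-fold with an interval of 0.63 to 0.85 (limma adjusted p = 0.0592). The difference was -0.24 ± 0.10 in double mutants against controls (limma adjusted p = 0.22) and 0.21 ± 0.10 in double mutants against 1 Mek1 allele (limma adjusted p = 0.458). Elovl5, the elongase of polyunsaturated chains, differed by -0.11 in double mutants against controls (limma adjusted p = 0.619) and by -0.25 ± 0.10 in 1 Mek1 allele against controls (limma adjusted p = 0.244).

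Shares of members whose arrays did not overlap between groups are given beside those of all genes, with no test of the difference. Groups did not overlap for 7 of 29 members (24.1%) in double mutants against controls, with 13.7% over all genes tested. They were Elovl1, Lss, Mvd, Scd2 and Srebf2 on the higher side and Ebp and Elovl6 on the lower side. In double mutants against 1 Mek1 allele they were Acly, Scd1 and Scd2, all higher, which makes 3 of 29 (10.3%, with 6.34% over all genes). In 1 Mek1 allele against controls they were Elovl1 and Srebf2 on the higher side and Acly, Elovl6 and Tm7sf2 on the lower side, which makes 5 of 29 (17.2%, with 9.91% over all genes). Tm7sf2 is counted there although its signal with 1 Mek1 allele was at background. Differences above 0 were found for 18 members (62.1%, with 49.3% of all genes) in double mutants against controls, for 21 (72.4%, with 51.8%) in double mutants against 1 Mek1 allele and for 9 (31%, with 47.9%) in 1 Mek1 allele against controls. Member medians in the same order were 0.07, 0.16 and -0.04, beside -0.0036, 0.0075 and -0.01 over all genes. The median size of a member's difference, 0.13, 0.16 and 0.13, stood beside 0.15, 0.12 and 0.14 over all genes. In 1 Mek1 allele against controls the share above 0 depended on the settings. With array brightness as a covariate 14 of 29 lay above 0, with a median of -0.0058 beside -0.021 over all genes. Without replicate 1 of 1 Mek1 allele 14 did, at -0.0129 beside -0.0108. Without its replicate 4 only 7 did, at -0.092 beside -0.0077.

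The sterol and the fatty acid enzymes differed in how their medians lay on single arrays. For the 9 fatty acid enzymes the median deviation from the control mean was 0.23, 0.12, 0.15 and 0.16 in double mutants, -0.12, -0.19, -0.17 and -0.02 with 1 Mek1 allele, and -0.05, -0.0024, 0.01 and 0.02 in controls. Double mutants stood above, and 1 Mek1 allele, apart from replicate 4, below all controls. The controls make up the mean that is subtracted, so they lie around 0 by construction and their range is no independent yardstick. Against controls, Elovl6, Elovl5 and Acly were lower in double mutants, opposite to this median. For the 14 sterol synthesis enzymes it was 0.16, -0.05, 0.06 and 0.09 in double mutants, -0.18, -0.30, 0.0028 and 0.20 with 1 Mek1 allele, and -0.10, -0.02, -0.03 and 0.06 in controls. Here the arrays of 1 Mek1 allele covered a wider range than both other groups together. The median over all genes stayed within 0.02 of 0 on every array. Quantile normalization holds it there, so it does not show how far a median of few genes strays. These medians describe the arrays and carry no test.

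**Figure D3:**
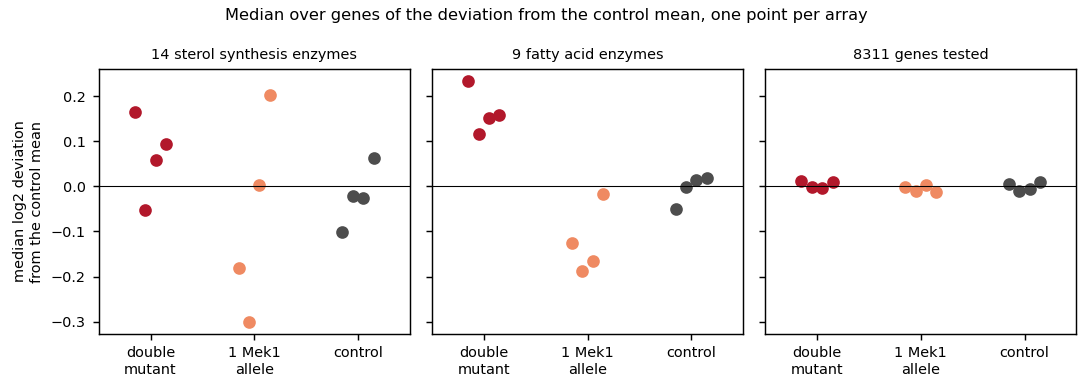
Median over genes of the log2 deviation from the control mean (y axis), with 1 point per array in double mutants, 1 Mek1 allele and controls, for the 14 sterol synthesis enzymes, the 9 fatty acid enzymes and the 8311 genes tested. Fatty acid enzymes of double mutants lie at 0.12 to 0.23, above every other array, while sterol enzymes with 1 Mek1 allele spread between -0.30 and 0.20. Controls lie around 0 by construction, and quantile normalization holds the median over all genes near 0.

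Pairs of members varied together to different degrees between specimens of the same genotype. Over the 12 arrays, with each value taken as its deviation from its group mean, the 91 pairs of sterol synthesis enzymes had a median correlation of 0.23 and 63 were above 0. Fdps and Sqle reached 0.96, the highest of all pairs of members, and Cyp51 and Fdps 0.90. High values also crossed the routes, at 0.95 for Sc5d with Scd1 and 0.93 for Acaca with Sc5d, where Sc5d was above background on 5 arrays. The lowest of all pairs was Acaca with Nsdhl at -0.78. Among pairs of sterol synthesis enzymes the lowest was Nsdhl with Sc5d at -0.68, and Dhcr7 with Mvd was at -0.57. The 36 pairs of fatty acid enzymes had a median of 0.02, and all 406 pairs of members 0.11. All of these values share specimen, brightness and normalization, and these values are given as a description over 12 arrays.

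Other genes of the same pathways came from lists set beside the members. Of 12 further genes of sterol synthesis, SREBP activation and uptake, 2 were measured and 0 of 2 passed. Mbtps1, the site-1 protease that cleaves SREBPs, differed by 0.30 ± 0.12 in double mutants against controls (limma adjusted p = 0.183), and Npc2, which hands cholesterol out of the lysosome, by -0.27 (limma adjusted p = 0.376). Of 25 further genes of fatty acid and glycerolipid synthesis 18 were measured and 0 of 18 passed in each of the 3 comparisons, with medians of -0.0069, 0.17 and -0.07 in the order used above. Unadjusted p was under 0.05 for 4, 4 and 8 of the 18, beside 18.7%, 11.5% and 16.4% of all genes. Slc25a1, the carrier that exports the citrate used by Acly, measured 9.09, 9.22, 9.03 and 9.25 in double mutants, 8.97, 9.05, 9.0002 and 8.89 with 1 Mek1 allele, and 8.90, 8.59, 8.82 and 8.78 in controls. Double mutants lay above all controls, with a difference of 0.38 (limma adjusted p = 0.0514) and of 0.34 on its second probe. Fads3, a desaturase, and Agpat2, an acyltransferase of glycerolipid synthesis, differed by 0.34 and 0.38 in double mutants against controls (limma adjusted p = 0.109 and 0.129). These 3 had the smallest p of the list. Of its 18 genes 9 lay above 0 in that comparison, from -0.30 for Hsd17b12, a reductase of chain elongation (limma adjusted p = 0.326), to 0.49 for Dgat2, which makes triglyceride (limma adjusted p = 0.13).

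The list of LXR and sterol efflux genes had 3 of 8 members measured, of which 1 passed. It passed against controls in double mutants and with 1 Mek1 allele, where 3.02% and 0.638% of all genes did. Apoe, the apolipoprotein that carries cholesterol away from cells and a known LXR target, measured 9.38, 9.50, 9.36 and 9.43 in double mutants, 9.24, 9.97, 9.74 and 9.15 with 1 Mek1 allele, and 8.72, 8.95, 8.58 and 8.75 in controls. Every mutant array was above every control. Against controls Apoe rose by 0.67 in double mutants, with limma's adjusted p at 0.0417, and by 0.78 with 1 Mek1 allele, at 0.0496, and the mutant groups differed by -0.11 (limma adjusted p = 0.871). It passed under 15 of 27 alternative settings in double mutants and under 10 of 27 with 1 Mek1 allele. Nr1h3, which encodes LXR alpha, and Cyp27a1, the sterol 27-hydroxylase, differed by 0.10 and 0.26 in double mutants against controls (limma adjusted p = 0.67 and 0.405).

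Macrophages also make Apoe, and 1 of 4 measured macrophage markers rose in double mutants against controls, where 3.02% of all genes passed. It was C1qc, by 0.81 (limma adjusted p = 0.00755). The summed linear intensity of the 4 was 893 to 1648 in double mutants, 818 to 1285 with 1 Mek1 allele and 849 to 912 in controls, and its part in the Apoe result was not tested. Of the fat markers Adipoq, Plin1, Cidea and Ucp1 and of the liver markers Alb, Afp, Apoa1, Ttr and Serpina1a, none passed the detection filter. For the tissue label, 5 of 6 lung epithelium and 6 of 6 lung mesenchyme markers were measured, and none of them passed in any comparison. The summed proliferation markers were 11140 to 12050 in double mutants, 11360 to 12550 with 1 Mek1 allele and 12520 to 13520 in controls, and of the 6 measured Tyms and Rrm2, both of nucleotide synthesis, fell in double mutants (limma adjusted p = 0.0211 and 0.0212) while 3 had differences above 0. Of 3 measured red cell markers Slc4a1, the anion exchanger, fell by 1.03 in double mutants against controls (limma adjusted p = 0.0127) and by 0.99 against 1 Mek1 allele (limma adjusted p = 0.0398), while Hbb-bh1, an embryonic globin, differed by 1.06 from controls (limma adjusted p = 0.0539). The red cell sum was 28260 to 36460 in double mutants, 32330 to 33470 with 1 Mek1 allele and 26900 to 35430 in controls. Nearly all of that sum was Hba-a1, with mean log2 intensities of 14.90, 14.95 and 14.82 in the same order, so it says little of Slc4a1 and Hbb-bh1. Of 3 endothelial markers Tie1 rose by 0.34 in double mutants against controls (limma adjusted p = 0.0497), and the endothelial sum was 1336 to 1674 in double mutants, 1320 to 1622 with 1 Mek1 allele and 1232 to 1463 in controls. Beside these marker counts, 3.02% of all genes passed in double mutants against controls and 0.541% in double mutants against 1 Mek1 allele. The part of cell makeup in the members' values was not tested.

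As a check of the genotype labels, Map2k2, which encodes MEK2, measured 10.62 to 11.14 in double mutants, 10.41 to 10.76 with 1 Mek1 allele and 11.48 to 11.66 in controls, so that a signal remained in both Mek2-/- groups. The position of the probe relative to the deletion is not stated in the labels. Map2k1, for MEK1, was above background on 0 of 12 arrays with its single probe and gives no check. Raw upper quartiles of intensity ran from 226.6 to 390.1, and control replicates 2 and 3 were the brightest, the other 10 arrays reaching at most 306.4. Leaving out these 2 arrays, the count of genes past the threshold in double mutants against controls was 10 in place of 251. Srebf2 then differed by 0.42 (limma adjusted p = 0.344) and Ebp by -0.39 (limma adjusted p = 0.382) in double mutants against controls.

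Calls of single members depended on the settings, as the plot of adjusted p under the alternatives shows. In double mutants against controls Srebf2 passed under 8 of 27 alternatives, with limma's adjusted p from 0.0171 to 0.344, and Ebp under 7, from 0.029 to 0.382. Scd2 passed under 2 of 27 in double mutants against 1 Mek1 allele, from 0.0468 to 0.277. In 1 Mek1 allele against controls Elovl6 passed under 8 of 27, from 0.0302 to 0.299, Elovl1 under 5 and Srebf2 under 3. These 6 differences kept their sign under all 27 alternatives.

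**Figure D4:**
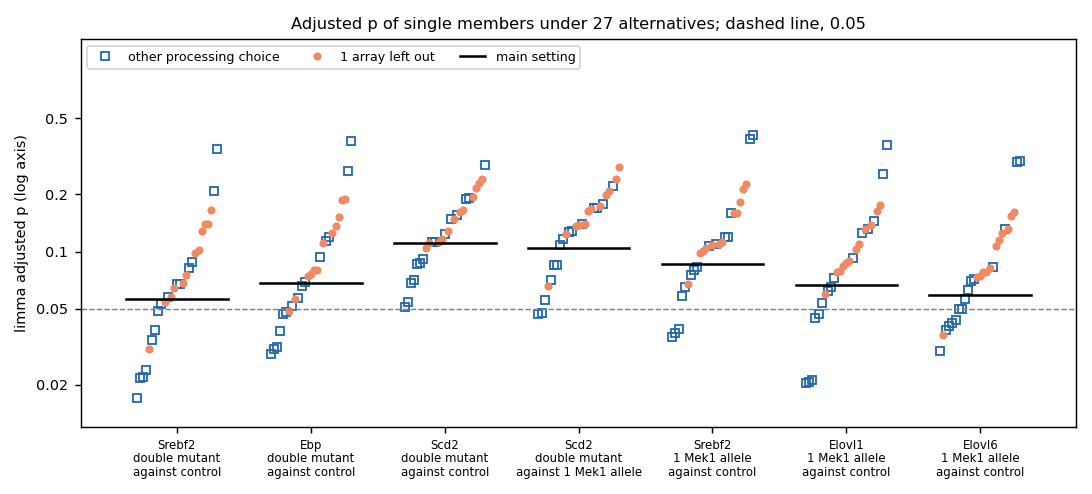
Adjusted p of limma (y axis, log scale) for 7 differences of single members under 27 alternatives, with squares for other processing choices, points for 1 array left out and a black bar for the setting used in the text. The dashed line is the threshold of 0.05, and every bar lies above it.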

How the data were processed

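Lung RNA (Trizol, DNase), labelled with biotin, was read on Illumina bead arrays, as the labels' protocols and platform say. Per the file headers, the deposited scanner file gives a linear, unnormalized intensity for every probe on every array and, next to it, a detection p-value against negative control beads. The authors' deposited matrix holds log2 values, used as an alternative: set against quantile-normalized intensities on the log2 scale they were apart by a median of 0.00386, follow intensity in direction, are not centred per gene and have medians of 6.91 to 6.93. Software of the authors: not given in the sources used here.

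Background was corrected by normexp from the detection p-values (offset 16), followed by log2 and then quantile normalization on that scale (R 4.3.3, limma 3.58.1). The detection filter (p under 0.01 on 4 or more of 12 arrays) kept 11841 of 25697 probes. The platform annotation gave 1 symbol for 23978 probes, and the other 1719 had no single symbol there. The brightest passing probe stood for a gene, and 9 further passing probes of members are quoted only as such. The 3 group means were fitted over all passing probes with lmFit and eBayes (9 residual degrees of freedom), and two-sided p-values were Benjamini-Hochberg adjusted over 8311 genes. "At least" folds set the brighter mean against a floor averaged over the arrays of the dimmer group, on each the lowest signal of any probe above background there or, if higher, the probe's own. The procedure was tested on simulated data.

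Values on every array were given, by rule, for members past the threshold and for the 12 with the smallest p in double mutants against controls; array values of Lss and Acly, and the bounds of Tm7sf2, were added after their values were seen. Members, lists and tests were chosen with earlier results of these data known. Alternatives covered background, scaling, the authors' values, filters, probe rules, variance model, array weights, arrays compared, replicate block, brightness, Y-linked signal and leaving out each array. Within groups, arrays correlated at 0.981 to 0.993. No genome coordinates of probes were used.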

Additional observations from a re-analysis of the deposited data

Results flagged for a closer look

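Within groups of 4 arrays, 99 groups of values were looked at for 1 array standing apart from the other 3, and 3 did; chance alone gives about 1 in 20. Elovl6 with 1 Mek1 allele was 8.03 in replicate 4, against 7.71 to 7.73 in the other 3 arrays. Scd2 in controls was 8.64 in replicate 4, against 8.97 to 9.03 in the other 3. Cds1, which makes CDP-diacylglycerol for phosphatidylinositol and phosphatidylglycerol, was 6.91 in replicate 1 of the double mutants, against 7.42 to 7.51 in the other 3. Without that array of 1 Mek1 allele the Elovl6 difference from controls was -0.53 (limma adjusted p = 0.0363), and without that control array the Scd2 difference of double mutants from controls was 0.25.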

How the results depend on the processing

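In the order double mutants against controls, double mutants against 1 Mek1 allele and 1 Mek1 allele against controls, 0 members and 251, 45 and 53 genes passed. With no background correction 2, 1 and 3 members and 426, 80 and 226 genes passed, and with the authors' log2 values 2, 1 and 3 members and 432, 68 and 206 genes. An offset of 50 gave 2, 0 and 2 members, with 80 genes in the second and 121 in the third comparison. Requiring detection on all 12 arrays gave 2, 0 and 2 members and 105 genes in the third comparison, and the mean of a gene's probes 1, 0 and 1 members. A variance trend with robust fitting gave 2, 0 and 4 members and 407, 75 and 224 genes, and array weights 3, 0 and 1 members and 591, 29 and 103 genes. No filter on detection gave 7 genes in the second comparison, every probe on its own 80 in the third, and only the arrays compared 1 in the second and 25 in the third. Array brightness as a covariate gave 77 genes in the first and 10 in the third comparison, leaving out the 2 brightest arrays 10, 8 and 5 genes, and Y-linked signal as a covariate 159 in the first and 2 in the second. Upper-quartile scaling gave 23 genes in the second comparison and moved the share of higher calls in the third to 60.4%, against 47.2%. That share also reached 80% of 10 and of 5 calls with brightness and without the 2 brightest arrays, 70% with the block and 73.3% without control replicate 2 or 3, and in the second comparison the only call from just the arrays compared was lower, against a share of 75.6% higher. Leaving out 1 array gave 0 to 1, 0 to 1 and 0 to 2 members and 109 to 288, 2 to 43 and 15 to 60 genes; the lowest counts came without control replicate 2, double mutant replicate 2 and control replicate 2. The labels do not say whether replicate numbers pair the samples. Deviations of same-numbered arrays correlated at -0.23 to 0.178, which cannot decide whether a litter or day was shared. With the replicate number as a block 0 members and 146, 3 and 20 genes passed. Single signs were followed for the 12 members with the smallest p and, in some comparisons, for Lss, Tm7sf2 and Acly. Other members turned too. In double mutants against controls 18 of 29 differences lay above 0. That count was 21 by upper-quartile scaling and without control replicate 2, and 16 without control replicate 1. Among the members followed, signs turned in the following cases, none of them past the threshold. Srebf2 in double mutants against 1 Mek1 allele was 0.0249 by upper-quartile scaling, 0.0394 with array weights, 0.0353 with brightness, 0.0042 with Y-linked signal and -0.0745 to 0.0373 without 1 array, and Fdps there -0.0408 to 0.156 without 1 array. In 1 Mek1 allele against controls Fads1 was 0.054 by upper-quartile scaling, 0.0442 with brightness, 0.0482 without the 2 brightest arrays and -0.0577 to 0.0332 without 1 array. Acaca there was -0.0172 with array weights and -0.0712 to 0.0695 without 1 array, and with brightness Ebp was 0.0274, against -0.13, and Scd1 0.0831, against -0.31. Differences of Pmvk and Insig1 in double mutants against controls ran from 0.12 to 0.42 and from -0.50 to -0.04 over all alternatives. The cause was not tested for any of these. Members near background (Tm7sf2, Sc5d, Srebf1) are limited by signal.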

Other observations

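Genes of surfactant phospholipid synthesis and the lamellar body, the organelle in which alveolar epithelium stores surfactant, had 8 of 9 listed members measured. In double mutants against controls 1 of 8 rose and 0 fell, where 3.02% of all genes tested were called, and their median difference was 0.28. Cds1 measured 6.91, 7.51, 7.42 and 7.46 in double mutants, 6.67, 6.76, 6.91 and 6.58 with 1 Mek1 allele, and 6.83, 6.51, 6.49 and 6.73 in controls. Double mutants were above all controls, and Cds1 rose by 0.69 (limma adjusted p = 0.0207), passing under 19 of 27 alternatives. Napsa, the protease that processes surfactant protein B, differed by 0.92 (limma adjusted p = 0.0615) and Pcyt1a, the rate-limiting enzyme of phosphatidylcholine synthesis, by -0.37 (limma adjusted p = 0.177). In double mutants against 1 Mek1 allele 0 of 8 passed, with a median of 0.39 and 5 at an unadjusted limma p under 0.05 (11.5% of all genes), Cds1 being at 0.60 (limma adjusted p = 0.0832).

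Of 4 lipofibroblast markers 3 were measured, and 1 of 3 passed in double mutants against controls, where 3.02% of all genes did. Lpl, the lipoprotein lipase that frees fatty acids for storage, measured 9.61, 9.21, 9.33 and 9.60 in double mutants, 9.45, 9.29, 9.49 and 9.49 with 1 Mek1 allele, and 9.81, 10.03, 9.79 and 9.91 in controls. All mutant arrays lay below all controls. Lpl fell by 0.45 in double mutants (limma adjusted p = 0.0484, passing under 8 of 27 alternatives), and with 1 Mek1 allele it differed by -0.45 (limma adjusted p = 0.0751). Plin2, a lipid droplet coat protein, differed by -0.31 in double mutants against controls (limma adjusted p = 0.229), and Pparg, the regulator of fat storage genes, by 0.23 (limma adjusted p = 0.546). With 1 Mek1 allele Plin2 and Pparg differed from controls by 0.15 and 0.20 (limma adjusted p = 0.624 and 0.626). The summed linear intensity of the 3 was 817 to 1072 in double mutants, 933 to 1104 with 1 Mek1 allele and 1161 to 1315 in controls. Lpl makes up most of this sum, which therefore largely repeats the Lpl values. Of 12 fatty acid oxidation genes 8 were measured and limma called 0 of 8 in each comparison, with 1, 0 and 0 at an unadjusted p under 0.05 in double mutants against controls, double mutants against 1 Mek1 allele and 1 Mek1 allele against controls, beside 18.7%, 11.5% and 16.4% of all genes.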
